A study of Mus musculus with 2 samples.

Results

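The signals of 10 cytokine and cytokine antagonist genes of mouse macrophages were compared between LPS+CPN+GGOH and LPS+CPN. The genes were Tnf, Tnfsf9, Il1a, Il1b, Il1rn, Il1r2, Il6, Il10, Il12a and Il12b. The rule takes them by name, as the main LPS-induced cytokines of macrophages together with the antagonists of interleukin-1, and uses no signal, but the set was drawn up with earlier results of these data known. The array had 13 probe sets that the platform annotation assigned to exactly 1 of these genes, among 45037 probe sets that are not controls. The 10 genes stand among 18093 genes with such a probe set. The cells were peritoneal macrophages of C57BL/6J mice, taken 3 days after thioglycolate had been injected to recruit macrophages to the peritoneum. GGOH was added to LPS and CPN in the culture named LPS+CPN+GGOH, and the culture named LPS+CPN received LPS and CPN alone. LPS is bacterial lipopolysaccharide, GGOH is geranylgeraniol, and CPN is known only by this abbreviation in the labels. LPS and CPN were thus shared by both cultures, and no culture without them was analysed here. The sources used here give no doses, treatment times or number of mice behind each culture.

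Lipopolysaccharide is sensed by TLR4, which switches on NF-kB, MAP kinases and interferon regulatory factors, and these induce Tnf, Il1a, Il1b, Il6 and the interleukin-12 genes within hours. Tumour necrosis factor and interleukin-1 amplify inflammation through their own receptors. Interleukin-10 feeds back on the same cells through STAT3 and holds these cytokines down. Geranylgeraniol can be converted by cells to geranylgeranyl diphosphate, a lipid that is attached to some proteins and anchors them to membranes.

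Promoter windows from RefSeq (build GRCm38.p6), which run from 250 bases before to 50 bases after a gene's start, were found for 8 of the 10 genes, with 11 windows in all. Those of Il6 and Tnf are shown because these genes had the largest ratios among the 7 above the floor on both arrays, in opposite directions, and those of Il1a and Il1b because their ratios lay close together. All are written 5′ to 3′ along the gene's own strand, and capitals mark matches on either strand to NF-kB, AP-1 (TGANTCA), the cAMP response element core (TGACGT) or the TATA box (TATAAA).
Il6 (chr5:30012864-30013163, plus strand): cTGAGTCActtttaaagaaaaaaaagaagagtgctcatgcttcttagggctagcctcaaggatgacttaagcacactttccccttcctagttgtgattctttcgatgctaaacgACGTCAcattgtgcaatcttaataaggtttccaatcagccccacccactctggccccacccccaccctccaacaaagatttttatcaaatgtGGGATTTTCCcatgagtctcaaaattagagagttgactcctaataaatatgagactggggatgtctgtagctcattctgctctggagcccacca
Tnf (chr17:35201958-35202257, minus strand): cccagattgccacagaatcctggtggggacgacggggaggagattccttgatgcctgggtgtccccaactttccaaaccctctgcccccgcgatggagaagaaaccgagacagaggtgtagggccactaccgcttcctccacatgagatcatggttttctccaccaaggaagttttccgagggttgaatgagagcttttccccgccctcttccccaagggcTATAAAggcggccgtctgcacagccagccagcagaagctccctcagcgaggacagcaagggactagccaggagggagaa
Il1a (chr2:129309923-129310222, minus strand): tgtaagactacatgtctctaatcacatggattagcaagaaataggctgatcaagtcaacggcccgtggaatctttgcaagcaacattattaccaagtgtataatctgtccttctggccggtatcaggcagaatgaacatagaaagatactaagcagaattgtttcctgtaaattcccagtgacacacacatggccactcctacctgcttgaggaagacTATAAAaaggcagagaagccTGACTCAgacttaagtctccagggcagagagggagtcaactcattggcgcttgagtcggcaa
Il1b (chr2:129371090-129371389, minus strand): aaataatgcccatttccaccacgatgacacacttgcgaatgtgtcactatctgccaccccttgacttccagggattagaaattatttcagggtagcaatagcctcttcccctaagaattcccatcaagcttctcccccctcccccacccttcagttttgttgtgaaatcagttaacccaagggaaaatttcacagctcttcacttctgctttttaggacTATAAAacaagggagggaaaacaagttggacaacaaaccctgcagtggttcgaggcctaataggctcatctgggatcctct

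The Il6 window held matches to NF-kB (positions -44 to -35 from the start), AP-1 (-249 to -243) and the cAMP response element core (-136 to -131). It held 3 matches to CACCC, the core of Krüppel-like factor sites, which 57.5% of all windows and 7 of the 11 cytokine windows hold, those of Tnf and Il1b among them, and a match to C/EBP (TTGCNNAA, positions -128 to -121); neither is in capitals. None of these matches overlapped another. The NF-kB consensus matched 8.46% of all 32851 promoter windows, AP-1 7.81%, the cAMP response element core 7.51% and C/EBP 10.8%. The Tnf, Il1a and Il1b windows each held a TATA box, at -29 to -24, -32 to -27 and -31 to -26, a motif present in 13.6% of all windows. Il1a also held an AP-1 match at -12 to -6. Of the 11 cytokine windows, 3 held AP-1, those of Il6 and Il1a and 1 of Il1rn (-141 to -135). The TATA box letters were in 4, those of Tnf, Il1a and Il1b and another window of Il1rn, there past the start (15 to 20). A match describes letters in the window and is not evidence that a factor bound there. The lack of a match is not evidence that a factor did not bind, since sites with other letters or outside the window are missed.

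Signal intensities are on the deposited linear scale of the MAS5 algorithm, with 1 array for each culture. There is no replicate, so no difference between the cultures was tested, and every value describes these 2 arrays. Signals at or under a floor of 59.9, the 50th percentile of all non-control signals, were taken as not measured. A gene above the floor on 1 array only has a bound, given as "at least". As a measure of error, log2 ratios of different probe sets of the same gene had a pooled SD of 0.45. This spread does not cover differences between cultures.

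The cytokines differed in opposite directions. With GGOH, Il6 was 5.67-fold higher, whereas Tnf was 5.44-fold lower, Tnfsf9 2.67-fold lower and Il10 at least 2.69-fold lower. Il1a and Il1b were lower by just under 2-fold, and the interleukin-1 receptor antagonist gene Il1rn was 1.18-fold higher. In all, 3 of the 10 genes were at least 2-fold lower, against 1.66% of the 11518 genes measured, and 1 was at least 2-fold higher, against 5.5%. The median log2 ratio of the 10 genes, bounds included, was -0.80, and that of all measured genes was -0.01.

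**Figure D1:**
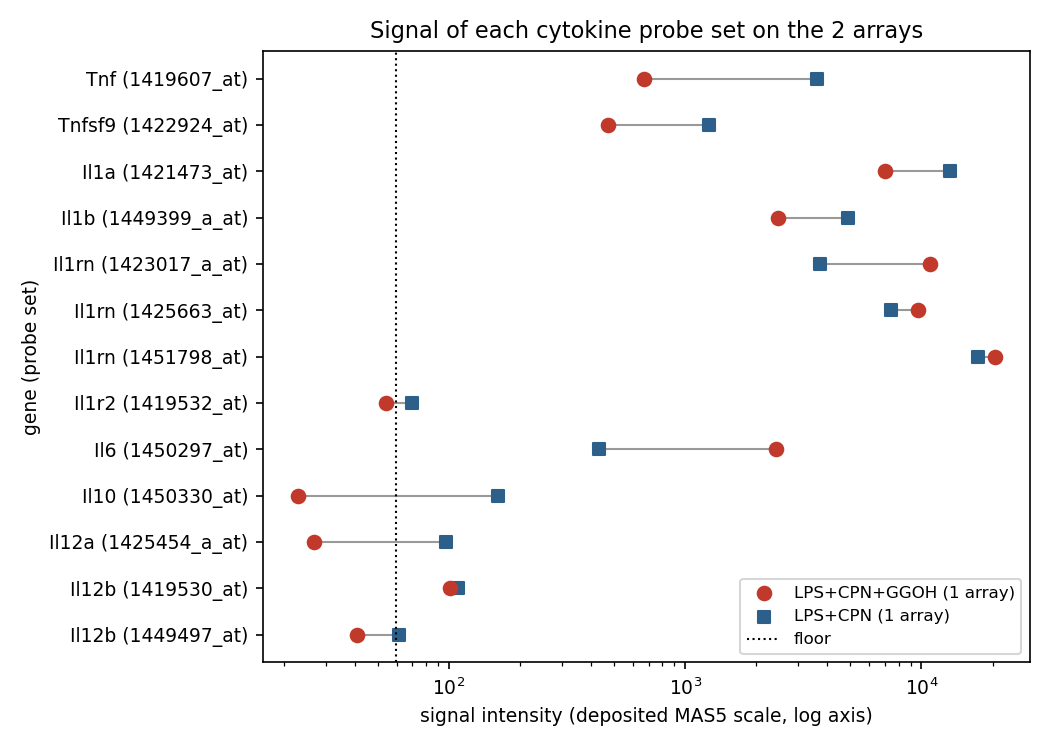
Signal intensity (log axis) of the 13 cytokine probe sets, 1 row per probe set, on the LPS+CPN+GGOH array (circles) and the LPS+CPN array (squares), with the floor of 59.9 dotted. The circle lies far left of the square for Tnf (666 and 3621) and far right of it for Il6 (2434 and 430).

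Among the TNF superfamily ligands, Tnf encodes tumour necrosis factor, which is made as a membrane protein and shed from the cell. Its signal was 666 with LPS+CPN+GGOH and 3621 with LPS+CPN. The log2 ratio of -2.44 ranked 4 from the lowest among the 9909 genes above the floor on both arrays. Tnfsf9 encodes 4-1BB ligand, a co-stimulatory ligand that is induced in activated macrophages. Its signal was 473 with LPS+CPN+GGOH and 1266 with LPS+CPN, a log2 ratio of -1.42 that ranked 36 from the lowest. Both genes had a single probe set. Both were lower with GGOH, and the log2 ratio of Tnf minus that of Tnfsf9 was -1.02. The pooled SD of 0.45 is for single log2 ratios, and a difference of 2 ratios varies more. Whether the 2 genes differed from each other was not tested.

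Among the interleukin-1 agonists, Il1a had a signal of 7038 with LPS+CPN+GGOH and 13237 with LPS+CPN. It encodes interleukin-1 alpha, which is active also as a precursor. Il1b encodes interleukin-1 beta, whose precursor is cut by caspase-1, and its signal was 2481 with LPS+CPN+GGOH and 4879 with LPS+CPN. The log2 ratios of -0.91 for Il1a and -0.98 for Il1b differed by 0.06, which is within the spread between probe sets. They ranked 212 (Il1a) and 166 (Il1b) from the lowest. Both fell short of 2-fold at the deposited scaling and passed it when each array was divided by its median (-1.08 and -1.14).

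Of the antagonists of interleukin-1, Il1rn was higher with GGOH and Il1r2, near the floor, was lower. Il1rn, which encodes the receptor antagonist that occupies the interleukin-1 receptor without signalling, was read by 3 probe sets. The brightest, 1451798_at, had a signal of 20465 with LPS+CPN+GGOH and 17322 with LPS+CPN. Probe set 1425663_at had 9625 with LPS+CPN+GGOH and 7428 with LPS+CPN. Probe set 1423017_a_at had 10846 with LPS+CPN+GGOH and 3711 with LPS+CPN. All 3 were higher with GGOH, but their log2 ratios of 0.24, 0.37 and 1.55 disagreed by more than the pooled SD, and 1 of them passed 2-fold. Il1r2 encodes a decoy receptor that binds interleukin-1 without signalling. Its signal was 54.2 with LPS+CPN+GGOH, under the floor, and 70.02 with LPS+CPN, just above it, so it was at least 1.17-fold lower and has no firm value.

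Dividing an array by a constant shifts every log2 ratio alike and leaves differences between genes as they are. The log2 ratio of Il1rn exceeded that of Il1b by 1.22, or 2.32-fold, with its brightest probe set, and by up to 2.52 with the others. Over the main and 9 other settings, this difference lay between 1.20 and 1.35. Only quantile normalization, lowess, a pseudocount and the median over probe sets could change it. For Il1rn against Il1a it was 1.15. The signal for the antagonist was thus higher relative to both agonists on the LPS+CPN+GGOH array, by an amount that depended on the Il1rn probe set.

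Il6 encodes interleukin-6, which signals through its receptor and the shared chain gp130. Its signal was 2434 with LPS+CPN+GGOH and 430 with LPS+CPN, a log2 ratio of 2.50. This ranked 54 from the highest of the 9909 genes above the floor on both arrays. It was the only 1 of the 10 genes at least 2-fold higher by its main value, and it rested on a single probe set. The log2 ratio of Il6 exceeded that of Tnf by 4.95, a 30.8-fold difference, and that of Il1b by 3.48. Over all settings the difference to Tnf lay between 4.69 and 4.95. Only quantile normalization, lowess and a pseudocount could change it.

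**Figure D2:**
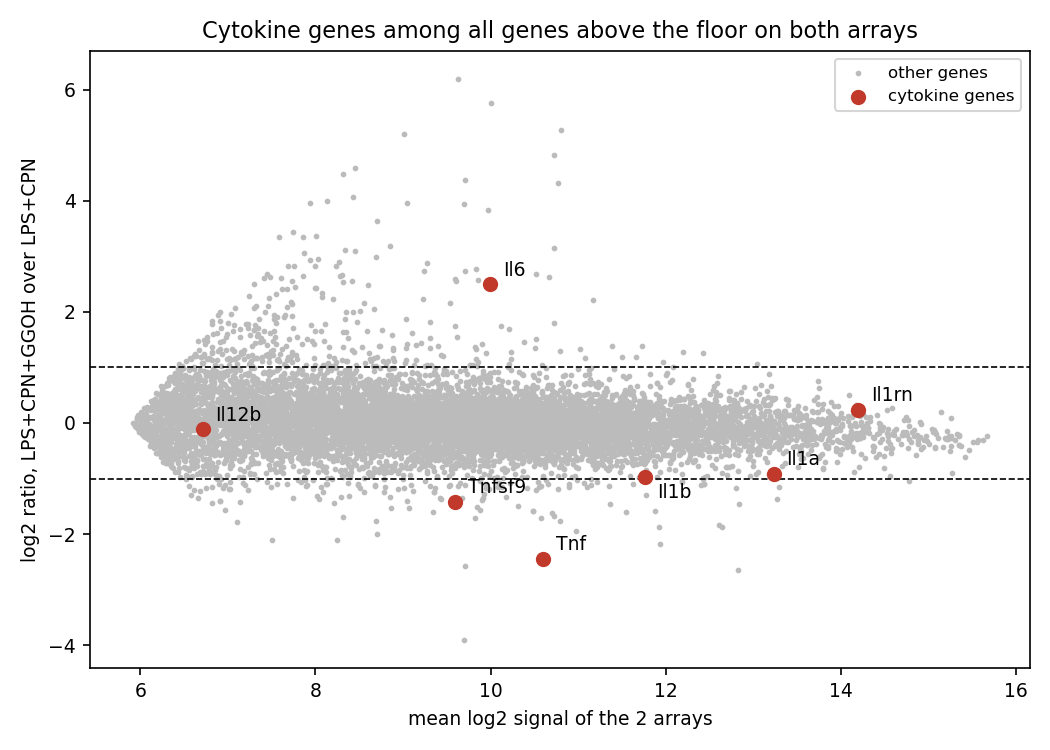
Log2 ratio of LPS+CPN+GGOH over LPS+CPN against the mean log2 signal of both arrays, 1 point per gene above the floor on both arrays, with the 7 cytokine genes among them in red and dashed lines at 2-fold. Il6 lies above the upper line at 2.50, Tnf (-2.44) and Tnfsf9 (-1.42) lie below the lower line, and Il1a and Il1b lie just inside it.

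Interleukin-10 and the interleukin-12 subunits had low signals. Il10, which encodes the anti-inflammatory cytokine interleukin-10, had a signal of 22.9 with LPS+CPN+GGOH, under the floor, and 161 with LPS+CPN. It was therefore at least 2.69-fold lower, and its log2 ratio was -2.82 under a lower floor, the 25th percentile. Il12a, which encodes the p35 subunit of interleukin-12, had a signal of 26.8 with LPS+CPN+GGOH and 96.9 with LPS+CPN, so it was at least 1.62-fold lower. Il12b encodes the p40 subunit, which interleukin-12 shares with interleukin-23. Its brighter probe set, 1419530_at, had 101 with LPS+CPN+GGOH and 109 with LPS+CPN, a log2 ratio of -0.11 that lay within the spread between probe sets. Its other probe set, 1449497_at, had 40.7 with LPS+CPN+GGOH and 61.7 with LPS+CPN. For Il10 and Il12a the signal passed the floor on the LPS+CPN array alone, as it did for probe set 1449497_at of Il12b, whereas probe set 1419530_at was near equal on both arrays.

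**Figure D3:**
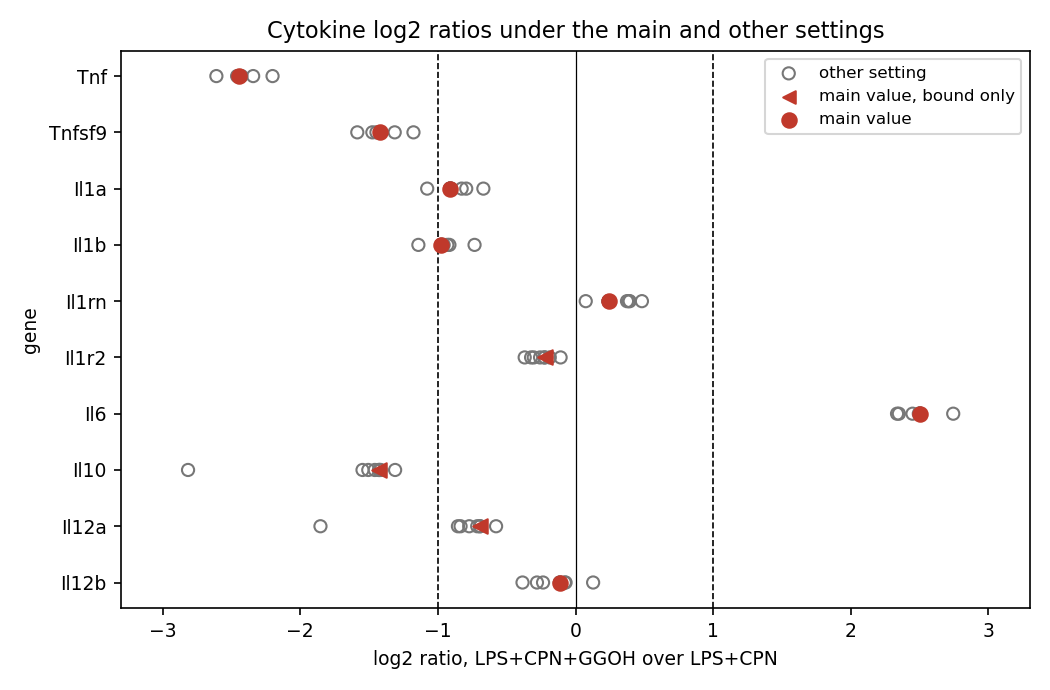
Log2 ratio of LPS+CPN+GGOH over LPS+CPN for each of the 10 genes under the main setting (red; triangles are bounds) and under other settings (open circles, some of them bounds), with dashed lines at 2-fold. Tnf, Tnfsf9 and Il6 lie outside the lines under all 10 settings, Il10 under the 9 in which it was measured, and Il1a and Il1b cross the lower line under 1. Both floors, the median over probe sets and _x_at probe sets kept could not move Tnf, Tnfsf9, Il1a, Il1b or Il6.

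The arrays also differed outside the cytokine genes. All 16 macrophage markers on the array, among them Adgre1, Cd68 and Csf1r, were above the floor in both cultures, with a summed signal of 222994 with LPS+CPN+GGOH and 255908 with LPS+CPN and a median log2 ratio of -0.24. Of these, 5 had log2 ratios above 0 and 11 below, and Itgam, which encodes the integrin CD11b, was the only 1 past 2-fold (646 with LPS+CPN+GGOH and 312 with LPS+CPN, log2 ratio 1.05), though not with array medians, quantile normalization, lowess, a pseudocount or the 75th-percentile floor. Of 15 mesothelial cell and fibroblast markers, 14 were above the floor with LPS+CPN+GGOH and 3 with LPS+CPN, with a summed signal of 29644 with LPS+CPN+GGOH and 1484 with LPS+CPN, and 11 were at least 2-fold higher with GGOH. The largest log2 ratios were those of the matrix genes Col1a2 (5.28), Sparc (4.83), Col3a1 (at least 4.69), Col1a1 (at least 4.14) and Dcn (3.16) and of the mesothelial factor gene Wt1 (at least 3.17). Measured probe sets of the same gene disagreed, bounds included. Those of Sparc ranged from -0.21 to 6.03, of Col1a2 from 0.88 to 5.83 and of Col3a1 from 0.86 to 4.69. Those of Dcn ranged from 0.26 to 3.16 and of Col1a1 from 3.43 to 4.14. No marker of T and NK cells (8 genes) or mast cells (8 genes) was above the floor on either array. Of the neutrophil markers, 1 of 8 was above the floor with LPS+CPN+GGOH and 3 with LPS+CPN, and at most 3 of the 6 or 7 markers of B cells, dendritic cells and endothelial cells were above it on either array. Of these lists, only the endothelial one had a gene past 2-fold, Vwf, with a log2 ratio of -1.07. The ratio of 3′ to 5′ control signal was 1.24 with LPS+CPN+GGOH and 2.44 with LPS+CPN for Actb, and 0.956 with LPS+CPN+GGOH and 1.98 with LPS+CPN for Gapdh. The part of other cells and of RNA quality in the cytokine ratios was not tested. Fewer cells of a type and less RNA per cell cannot be told apart in bulk RNA. Genes at least 2-fold higher made up 76.8% of all those past 2-fold (634 higher, 191 lower), but 61.4% when each array was divided by its median, 62.1% after quantile normalization and 91.6% when the macrophage markers were set to a median ratio of 0. The floor also moved this share, to 59.5% at the 25th percentile and 58.9% at the 75th.

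The receptors of these cytokines were read for 11 genes, of which 10 were measured. Il1r1, the signalling receptor for interleukin-1, had a signal of 501 with LPS+CPN+GGOH and 2.61 with LPS+CPN, and was at least 8.36-fold higher by the 1 of its 2 probe sets that was measured. Tnfrsf9, the receptor for 4-1BB ligand, had 314 with LPS+CPN+GGOH and 140 with LPS+CPN, a log2 ratio of 1.17, while its ligand gene Tnfsf9 was lower. It fell short of 2-fold after quantile normalization or with a pseudocount, and was not measured with the floor at the 75th percentile. No receptor was at least 2-fold lower, except Il1rap with array medians, quantile normalization or lowess. The TNF receptor genes Tnfrsf1a (-0.64) and Tnfrsf1b (-0.56), the interleukin-6 receptor gene Il6ra (-0.80) and the interleukin-10 receptor gene Il10ra (-0.60) had log2 ratios below 0. So did Il1rap (-0.90), the accessory chain of the interleukin-1 receptor, though it was 0.04 with the median over probe sets. Those of the shared chains Il6st (0.41) and Il10rb (0.16) and of Il12rb1 (0.22) were above 0, except that Il10rb was -0.01 with array medians and -0.11 with the median over probe sets, and Il12rb1 was -0.01 after quantile normalization. Il12rb2 was not measured. Probe sets of Tnfrsf1b, Il6ra, Il1rap, Il6st and Il10rb disagreed in sign. Il1r1 and Il6 were higher on the array that had the higher fibroblast markers, and the cells that carried their signals were not determined or tested.

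Relatives of the cytokines showed few large differences. Il33, an alarmin of stromal cells, was at least 3.20-fold higher, and Il1rl2, the receptor for interleukin-36, had a log2 ratio of 1.80. Il1f10 was at least 3.36-fold lower, with a signal of 39.6 under LPS+CPN+GGOH and 202 under LPS+CPN. In the interleukin-6 and interleukin-12 families, Lif, which also signals through gp130, was the only 1 of 6 measured genes past 2-fold at the deposited scaling, with a signal of 416 with LPS+CPN+GGOH and 150 with LPS+CPN. None of 6 measured TNF superfamily ligands other than Tnf and Tnfsf9 passed 2-fold under any scaling, though Tnfsf13b did with a pseudocount. The floor at the 25th percentile, where 10.4% of measured genes were higher and 7.08% lower by 2-fold or more, left 11 such ligands measured. Of these ligands, 4 were higher and 1 was lower by 2-fold or more. Among these, Lta, the lymphotoxin alpha gene next to Tnf on chromosome 17, had a log2 ratio of -0.63, and Tnfsf13b was at least 1.36-fold higher. In the interleukin-10 family, Il20 alone was measured besides Il10, with a log2 ratio of -0.39.

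**Figure D4:**
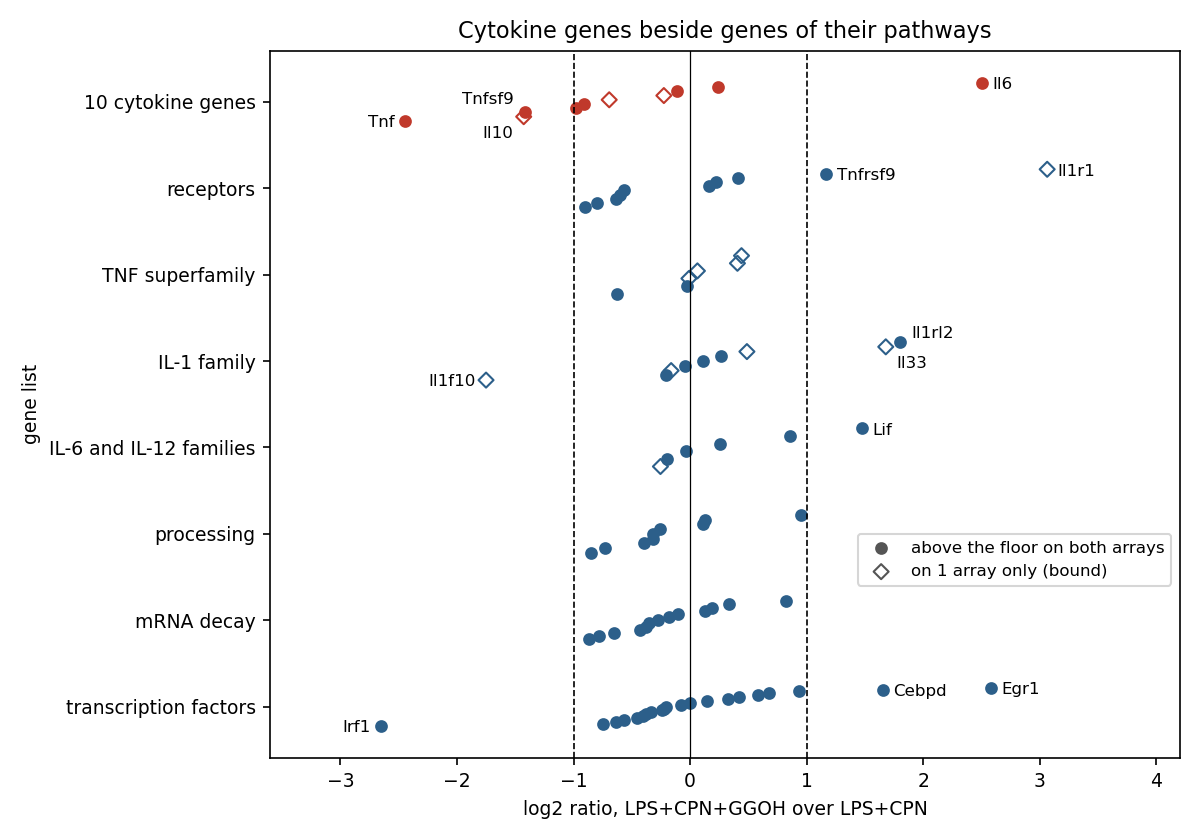
Log2 ratio of LPS+CPN+GGOH over LPS+CPN for measured genes of 8 lists, 1 row per list and 1 symbol per gene, with open diamonds for bounds, small vertical offsets for legibility and dashed lines at 2-fold. The cytokine genes (red) span -2.44 to 2.50, while all processing and mRNA decay genes lie between the lines at the deposited scaling.

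Genes that act on cytokine proteins and transcripts lay within 2-fold at the deposited scaling. The median log2 ratio of 9 genes of cytokine processing and release was -0.32, or 0.04 with the median over probe sets. The iRhom genes Rhbdf1 (0.95) and Rhbdf2 (-0.85), whose products carry the sheddase ADAM17 to the cell surface, had the largest ratios. Rhbdf2 passed 2-fold with array medians and Rhbdf1 with macrophage markers at 0. Adam17 itself, which releases tumour necrosis factor, had a log2 ratio of -0.73, or 0.04 with the median over its probe sets, and Casp1, which encodes caspase-1, had one of -0.32. The median of 13 genes of cytokine mRNA decay was -0.27, with Rc3h1, which encodes the RNA-binding protein roquin, at -0.86 and Zfp36l1 at 0.82; they passed 2-fold with array medians and with macrophage markers at 0, in that order. Zfp36, which encodes tristetraprolin, a destabiliser of Tnf transcripts, had a log2 ratio of -0.65.

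Among 21 transcription factors and cofactors of the cytokine genes, 2 were at least 2-fold higher and 1 was lower. Of all measured genes, 5.5% were at least 2-fold higher and 1.66% lower. Irf1, which takes part in Il12 gene induction, had a signal of 2904 with LPS+CPN+GGOH and 18294 with LPS+CPN, a log2 ratio of -2.66. Egr1, an immediate early factor, had 2259 with LPS+CPN+GGOH and 378 with LPS+CPN, a log2 ratio of 2.58. Cebpd, which encodes C/EBP delta, an activator of Il6 transcription, had 685 with LPS+CPN+GGOH and 218 with LPS+CPN, a log2 ratio of 1.65. Among NF-kB genes at the deposited scaling, Rela (-0.57), Nfkb2 (-0.46) and Relb (-0.24) had log2 ratios below 0 and Rel (0.32) had one above 0. Bcl3 (-0.63) and Nfkbiz (0.68), of the same list, also differed in sign. Cebpb had a log2 ratio of -0.23, which was 0.01 with macrophage markers at 0. With the floor at the 75th percentile, Cebpd, Lif and Il1r1 no longer passed 2-fold, and Tnfrsf9, Il33, Il1rl2 and Il1f10 were under the floor on both arrays. The median of the 21 genes was -0.21, or 0.03 with macrophage markers at 0.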

How the data were processed

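Signal intensity values, 1 per probe set and array, were taken from the deposited table. The submitters' processing notes name MAS5, with no version or scaling target in the sources used here. Both arrays had a trimmed mean of 500.0, so the authors' values were already scaled. Of 45101 probe sets, 64 were controls. Genes were named by the platform annotation, and 34741 of 34945 probe sets with 1 symbol were found by gene identifier in RefSeq (GRCm38.p6). The 2038 _x_at probe sets with 1 symbol were left out of gene values; the 10 cytokine genes had none. A gene took the value of its brightest probe set (mean log2 signal). Log2 ratios are LPS+CPN+GGOH over LPS+CPN. A call is a difference of 2-fold or more, bounds included.

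The 10 genes, the lists and the settings were chosen with earlier results of these data known. All 10 genes and all receptors are named; of each other list, the genes at least 2-fold apart or, where none was, the 2 with the largest absolute ratios; of lists with over 6 such genes the 6 largest are named. B cell and dendritic cell markers are given as counts only, and so are neutrophil markers other than S100a8. Adgre1, Cd68, Csf1r, S100a8, Adam17, Casp1, Zfp36, Rela, Nfkb2, Relb, Rel, Bcl3, Nfkbiz and Cebpb were named after their values were seen. The 9 other settings were 4 scalings (array medians, quantiles, lowess with span 0.4, macrophage markers), a lower and a higher floor (25th and 75th percentile), a pseudocount as large as the floor, the median over probe sets, and _x_at probe sets kept. The steps were run on simulated arrays with known changes past 2-fold in genes above the floor on both arrays. Their noise was smaller than the spread between probe sets, so this checked the code and not the error of these data. Motifs were searched on both strands. The number of arrays limits the precision. Python 3.11.15, numpy 2.4.6, pandas 2.3.3 and statsmodels 0.14.6 were used.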

Additional observations from a re-analysis of the deposited data

How the results depend on the processing

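The 2-fold calls of Tnf, Tnfsf9 and Il6 held under all 9 other settings, with log2 ratios from -2.61 to -2.20, -1.59 to -1.18 and 2.34 to 2.74. For these genes, both floors, the median over probe sets and _x_at probe sets kept could not change the value. Each had 1 probe set, not of the _x_at kind, with both signals above every floor. The call of Il10 held in the 8 settings in which it was measured (-2.82 to -1.31). Il12b was 0.13 with macrophage markers at a median of 0, against -0.11 in the main setting. Dividing each array by its median made 5 of the cytokine genes at least 2-fold lower (Tnf, Tnfsf9, Il1a, Il1b and Il10) and shifted the median of all genes by -0.16; setting macrophage markers to 0 shifted it by 0.23. With the floor at the 25th percentile 4 were lower, Il12a being added at -1.85. With the floor at the 75th percentile 6 were measured and 2 were lower, because Il10, Il12a, Il12b and Il1r2 dropped out. Genes lower among all those measured numbered 332 with array medians, 307 after quantile normalization, 86 with macrophage markers at 0, 1127 with the floor at the 25th percentile and 88 at the 75th; genes higher numbered 1658 and 126 with those floors. In the pathway lists together (7 higher, 2 lower), 5 were lower with array medians, 11 were higher with macrophage markers at 0, 12 were higher and 4 lower with the low floor, and 1 was higher and 1 lower with the high floor. The floors set how many genes were measured. Array medians and macrophage markers at 0 shift all log2 ratios above the floor by a constant, which moves the counts. The cause of the other changes was not tested. No paired analysis was possible because each culture had 1 array. Signals near the floor, as for Il1r2, Il12a and Il12b, limit what can be said of these genes.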
